A study of Mus musculus with 4 samples.

Results

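The axon guidance ligands and receptors described here are the genes of the semaphorin, plexin, neuropilin, Slit, Robo, ephrin, Eph and netrin families in cultured mouse sensory neurons. They were matched by gene symbol, from patterns for these families, and the match used no values. The patterns matched 57 transcripts of 48 genes, out of 11258 genes in the table. One match, Unc50, shares only the start of its symbol with the netrin receptors and is the homologue of a worm gene for a Golgi membrane protein. That leaves 47 guidance genes, 23 of them ligands and 24 receptors or co-receptors.

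The PROM1 cultures were dissociated dorsal root ganglion (DRG) neurons, taken from mice at E13.5 (an embryonic day), that received a lentivirus carrying human PROM1 (CD133). The control cultures were the same kind of neurons given the control pLKO lentivirus, and both viruses were added on day 2 in vitro. Both conditions had nerve growth factor in the medium, together with uridine and the antimitotic fluorodeoxyuridine, on dishes coated with poly-D-lysine and laminin. Each condition had 2 libraries, which the series text calls biological duplicates. The PROM1 product, prominin 1, sits in membrane protrusions and binds cholesterol. Its own transcript was not analysed here.

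Guidance cues steer growing axons by attraction or repulsion. Semaphorins act on plexins, with neuropilins as co-receptors for most secreted semaphorins. Ephrins act on Eph receptor kinases and can also signal back into the cell that carries them. Slits act on Robo receptors, and netrins act on Dcc, neogenin and the Unc5 receptors. In embryonic sensory ganglia these systems are known for keeping axons out of the wrong territory and for setting their branching in the spinal cord and skin.

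The values are FPKM, fragment values corrected for transcript length and sequencing total, so levels of different genes can be set side by side. FPKM was summed over the listed transcripts of a gene in each library. The library FPKM values added up to 357804.6 to 385962.8 over the whole table. No read counts are given, so the depth behind each value is unknown. The 10 markers of sensory neurons were all listed. They summed to 2274 and 2740 FPKM in the PROM1 libraries and to 2405 and 2603 FPKM in the control libraries. In bulk RNA, fewer cells of a type and less RNA per cell cannot be told apart.

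Across the 48 genes the mean level ran from 0.389 FPKM for Unc5b to 72.2 FPKM for Plxnd1. A total of 17 genes had at least 10 FPKM, 25 had 1 to 10 FPKM, and 6 were below 1 FPKM. The highest means over the 4 libraries belonged to Plxnd1, Nrp1, Efna3 and Rgmb; in PROM1 cultures alone Nrp1 (69.1 FPKM) stood above Plxnd1 (60.6 FPKM). The summed FPKM of all 48 genes was 613.1 and 545.2 in the PROM1 libraries, against 644.6 and 564.8 in the control libraries. The totals overlap between the groups.

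**Figure D1:**
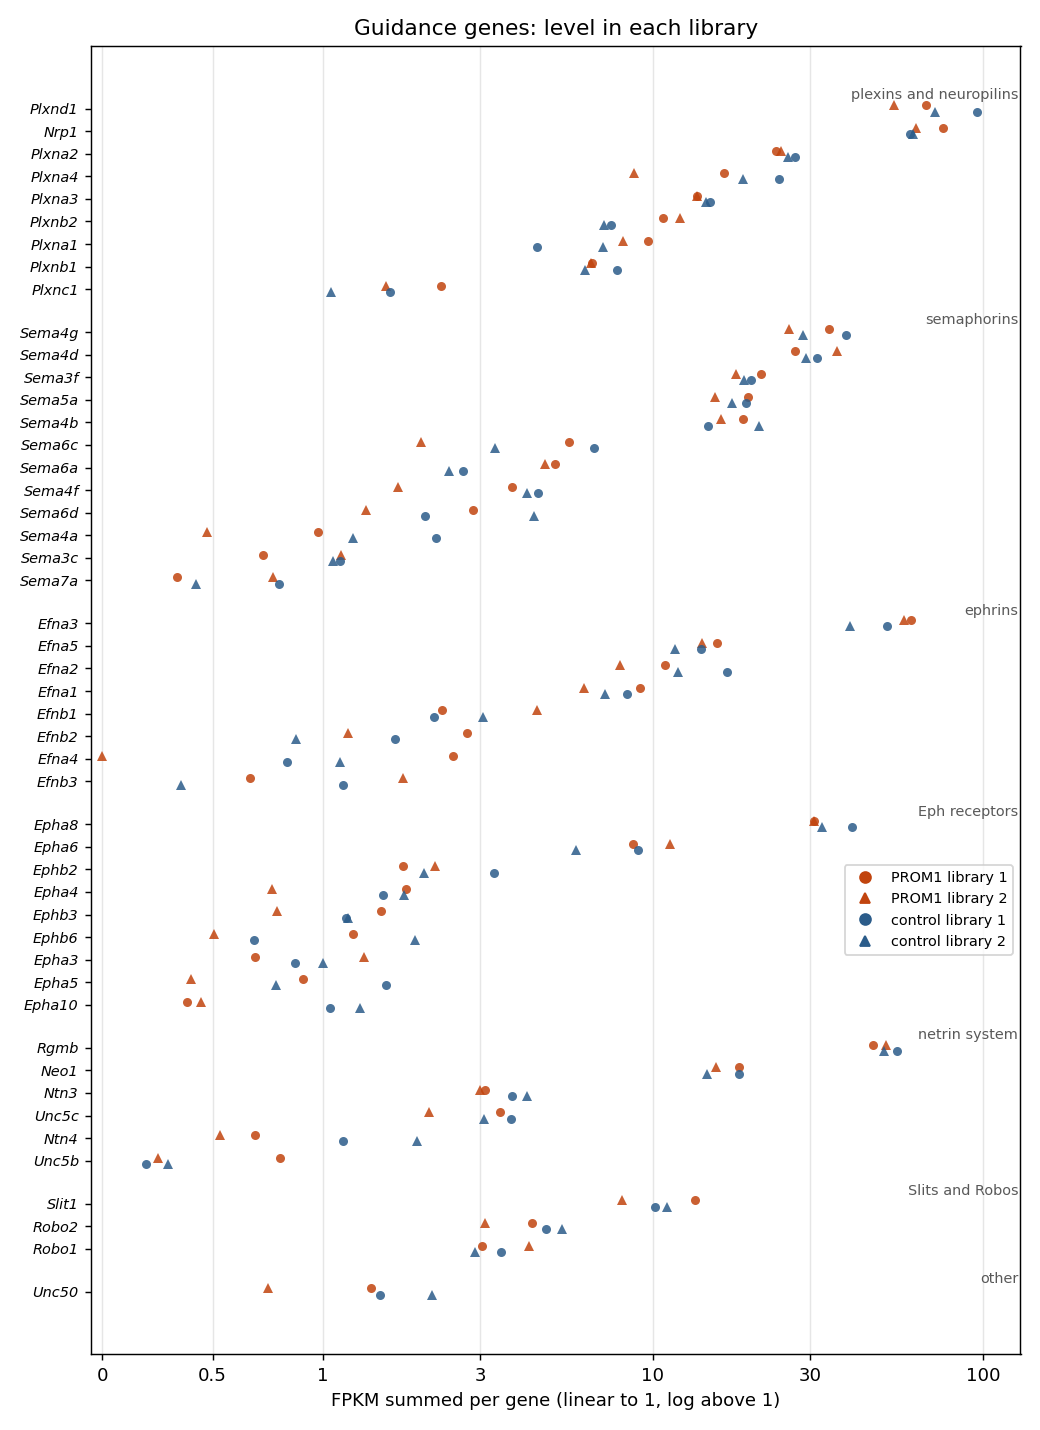
Level of each of the 48 genes in the 4 libraries, in FPKM on an axis that is linear up to 1 and logarithmic above it, grouped by family and ordered by mean level; circles are library 1 and triangles library 2 of each condition. Levels run from below 1 FPKM to over 50 FPKM, and most genes have the 2 conditions intermingled.

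No guidance gene passed the test across all genes. Averaging at least 1 FPKM was the condition for testing, and 0 of the 42 genes that met it had an adjusted p under 0.05 in limma, against 0.0198% of all 10108 genes tested. An unadjusted limma p under 0.05 was found for 2 of the 42, Sema6a and Plxnb2, against 4.70% of all genes tested. These p-values rest on 2 libraries in each condition, with the spread of each gene moderated by limma toward a trend over all genes tested.

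The differences leaned slightly downward. Differences are PROM1 minus control on the log2(FPKM + 1) scale, where low genes show less than their full change. On it, 14 of the 42 had a higher mean and 28 a lower mean in PROM1 cultures. Over all genes tested, 46.5% had a higher mean and 53.5% a lower mean. The median difference was -0.09 for the guidance genes and -0.03 for all genes tested. Without PROM1 library 2 the median of the guidance genes was 0.02, so its sign rested on that library. The conditions separated upward, with both PROM1 values over both control values, for 6 of the 42 (14.3%), against 16.5% of all genes tested. They separated downward for 12 of the 42 (28.6%), against 17.5% of all genes tested, and a mean difference of at least 0.5 in either direction was found for 8 genes, against 19.5% of all genes. After scaling each library to its upper quartile the downward count was 9 (21.4%), against 15.4% of all genes under that scaling. Among genes of at least 5 FPKM the downward count was 6 of 22 (27.3%), against 18.1% of all such genes. The upward count at that level was 5 of 22 (22.7%), against 15.7%. The median difference there was -0.027 for the guidance genes and -0.033 for all such genes, so the median no longer leaned below that of all genes.

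**Figure D2:**
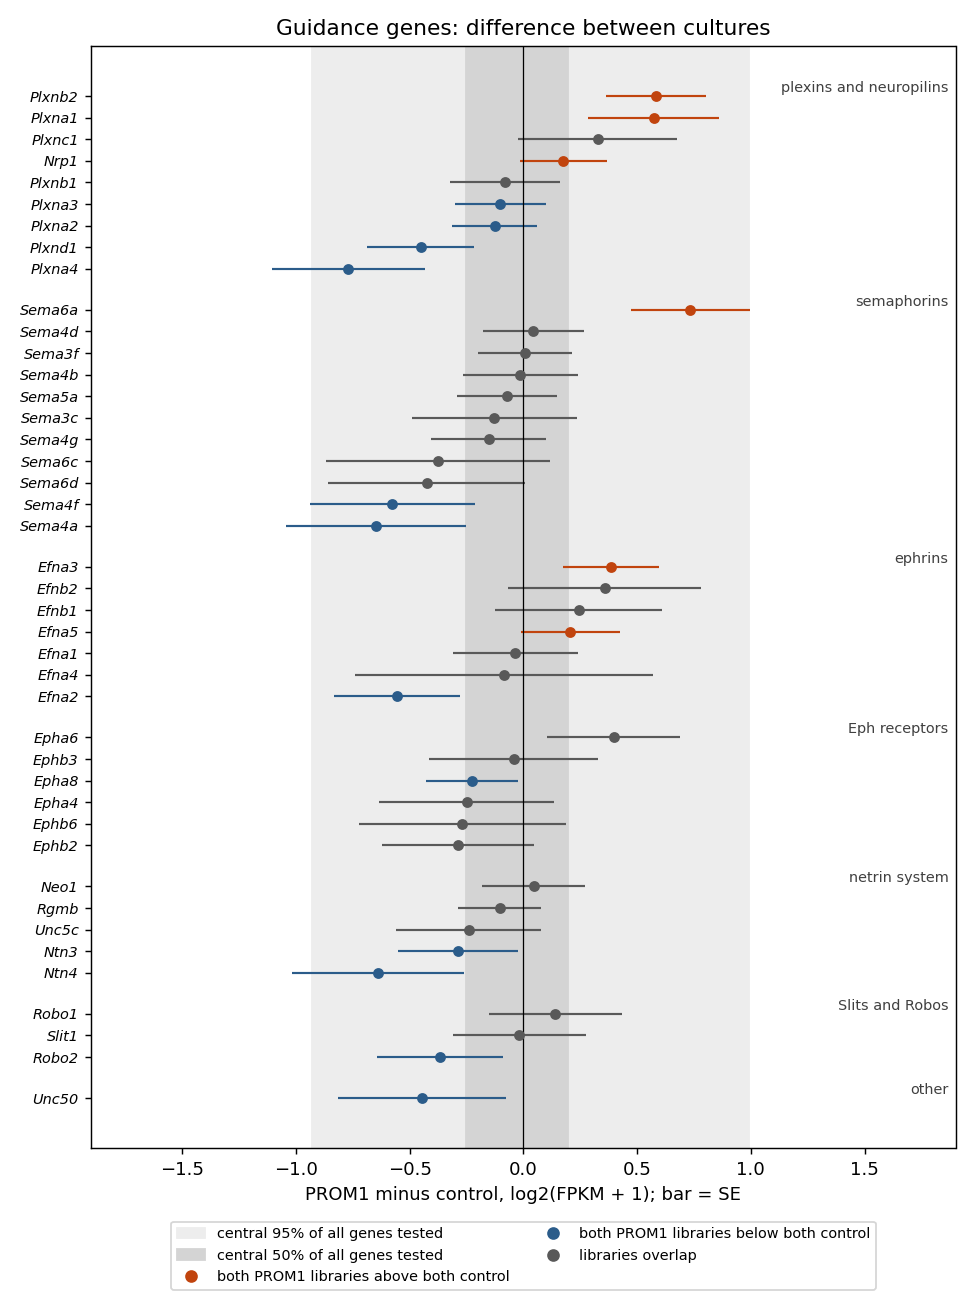
Difference between PROM1 and control cultures for the 42 tested genes on the log2(FPKM + 1) scale, with the standard error from limma as a bar, by family; the bands hold the central 50% and 95% of all genes tested. Every point lies inside the wider band, which runs from -0.93 to 0.99, and the points farthest out are Plxna4 at -0.77 and Sema6a at 0.73.

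The plexins and Nrp1 were mostly separated by condition, but in both directions. All 9 were tested: 3 had both PROM1 libraries over the controls, 4 had both under them, and 2 overlapped, where 16.5% and 17.5% of all genes tested separated upward and downward. Plexins are the signalling receptors of semaphorins, and their cytoplasmic part acts as a GTPase-activating protein. The 8 plexins together summed to 150.2 and 129.0 FPKM in the PROM1 libraries, against 183.2 and 151.8 FPKM in the control libraries. The higher PROM1 total lay just below the lower control total. Without Plxnd1 that order was lost. The other 7 summed to 82.9 and 75.03 FPKM in the PROM1 libraries, against 87.3 and 80.3 FPKM in the control libraries, and overlapped. The gap was narrow, and no other plexin was left out in this way.

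Plxnb2, a plexin that takes class 4 semaphorins as ligands, had 10.7 and 12.1 FPKM in PROM1 libraries 1 and 2, against 7.47 and 7.11 FPKM in control libraries 1 and 2. The libraries of each condition were close to each other and the conditions did not overlap. The log2 difference was 0.58 ± 0.22 (SE), with an unadjusted p of 0.0422 and an adjusted p of 0.939 in limma. Without each library in turn the difference stayed between 0.50 and 0.66, and no alternative called it. Plxna1, a plexin that pairs with neuropilins and also takes Sema6d, had 9.65 and 8.15 FPKM in the PROM1 libraries, against 4.47 and 7.05 FPKM in the control libraries. Its control libraries lay further apart than its PROM1 libraries. The log2 difference was 0.57 ± 0.29 (SE; limma adjusted p = 0.939), and it was 0.29 without control library 1.

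Plxna4, the plexin that works with Nrp1 as a receptor of secreted semaphorins in sensory neurons, stood the other way. It had 16.4 and 8.78 FPKM in the PROM1 libraries, against 24.1 and 18.7 FPKM in the control libraries. Both PROM1 values were lower, but PROM1 library 1 lay closer to control library 2 than to PROM1 library 2. The log2 difference was -0.77 ± 0.34 (SE; limma adjusted p = 0.939), with -1.19 without PROM1 library 1 and -0.36 without PROM1 library 2. Plxnd1, the receptor of Sema3e and the guidance gene with the highest mean over the 4 libraries, had 67.2 and 54.0 FPKM in the PROM1 libraries, against 95.9 and 71.5 FPKM in the control libraries. The libraries did not overlap, with PROM1 library 1 and control library 2 nearest to each other. Its log2 difference of -0.45 ± 0.23 (SE; limma adjusted p = 0.939) was -0.24 without control library 1 and -0.30 without PROM1 library 2.

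The remaining plexins had smaller differences, none past the threshold. Plxna2, a receptor of Sema6a, had 23.7 and 24.4 FPKM in the PROM1 libraries, against 27.0 and 25.7 FPKM in the control libraries. Both PROM1 values were lower, but the log2 difference of -0.13 ± 0.19 (SE) was smaller than its error. Plxna3, another partner of neuropilins, stood at 13.6 to 14.9 FPKM, with both PROM1 values below both control values and a log2 difference of -0.10 ± 0.20 (SE). Plxnb1, a receptor of Sema4d, and Plxnc1, a receptor of Sema7a, overlapped between conditions, with log2 differences of -0.08 ± 0.24 and 0.33 ± 0.35 (SE). Nrp1, the co-receptor that binds secreted semaphorins, had 75.6 and 62.5 FPKM in the PROM1 libraries, against 60.3 and 61.4 FPKM in the control libraries. Both PROM1 values were higher, the second only slightly, and the log2 difference was 0.17 ± 0.19 (SE), or 0.04 without PROM1 library 1.

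The starts of 3 of the genes with separated libraries are shown as reference sequence, to give the promoters behind a plexin that was higher and a plexin and an ephrin that were lower in PROM1 cultures. They come from RefSeq, build GRCm38.p6, and each holds 300 bases, the last 50 of them after an annotated start. The RefSeq table at hand held windows for 42 of the 48 genes. Capitals mark the GC box letters GGGCGG or, for the other strand, CCGCCC.
Plxnb2, first window, chr15:89180739-89181038, minus strand: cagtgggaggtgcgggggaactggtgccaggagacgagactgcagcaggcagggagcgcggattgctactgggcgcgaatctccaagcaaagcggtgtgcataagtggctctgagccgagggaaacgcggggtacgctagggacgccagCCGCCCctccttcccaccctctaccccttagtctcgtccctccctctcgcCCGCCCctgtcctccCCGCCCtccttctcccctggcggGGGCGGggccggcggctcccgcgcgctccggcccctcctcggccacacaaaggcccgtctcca
Plxnb2, second window, chr15:89173902-89174201, minus strand: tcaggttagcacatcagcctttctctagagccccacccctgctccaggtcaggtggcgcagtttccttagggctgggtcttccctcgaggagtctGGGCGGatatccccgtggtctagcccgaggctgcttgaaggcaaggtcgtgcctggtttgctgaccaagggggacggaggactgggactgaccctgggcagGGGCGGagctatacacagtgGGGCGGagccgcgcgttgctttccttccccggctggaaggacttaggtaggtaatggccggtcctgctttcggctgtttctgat
Plxnd1, chr6:115994956-115995255, minus strand: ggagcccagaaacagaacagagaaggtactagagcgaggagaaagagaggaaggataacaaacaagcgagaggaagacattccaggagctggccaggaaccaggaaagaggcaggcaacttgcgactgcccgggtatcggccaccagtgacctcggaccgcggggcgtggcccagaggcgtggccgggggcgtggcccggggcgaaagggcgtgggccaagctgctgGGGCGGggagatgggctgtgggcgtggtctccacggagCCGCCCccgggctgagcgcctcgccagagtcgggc
Efna2, chr10:80179232-80179531, plus strand: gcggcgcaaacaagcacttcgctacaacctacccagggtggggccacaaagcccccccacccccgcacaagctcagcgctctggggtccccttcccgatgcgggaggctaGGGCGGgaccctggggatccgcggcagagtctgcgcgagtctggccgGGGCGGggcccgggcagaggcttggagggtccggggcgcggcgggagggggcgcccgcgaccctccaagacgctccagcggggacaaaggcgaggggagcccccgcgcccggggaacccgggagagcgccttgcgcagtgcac

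The 4 windows held 4, 3, 2 and 2 GC box matches in the order shown, so the letters occur both in the gene that was higher and in those that were lower. Over all guidance genes with a window, 41 of 57 windows (71.9%) held the GC box letters on either strand. The share was 64.5% of the windows of all genes tested and 35.7% of all 32851 windows in the table. The letters TATAAA, on either strand, were in 3 of the 57 windows (5.26%), against 6.44% of the windows of genes tested. Median GC content was 65% in the guidance windows and 61.3% in the windows of genes tested. Some genes have several windows, so these shares are descriptions of the annotation and a match is not a measured binding site.

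Among the semaphorins, 11 of 12 were tested, 3 with a higher and 8 with a lower mean in PROM1 cultures. Sema6a, a transmembrane semaphorin that acts on Plxna2 and Plxna4, had the lowest limma p of all guidance genes. It had 5.07 and 4.705 FPKM in PROM1 libraries 1 and 2, against 2.655 and 2.42 FPKM in control libraries 1 and 2. The libraries agreed closely within each condition and did not overlap. The log2 difference was 0.73 ± 0.26 (SE), 1.66-fold on that scale, with an unadjusted p of 0.0346 and an adjusted p of 0.939 in limma. Without each library in turn it stayed between 0.69 and 0.78, and with a pseudocount of 0.1 it was 0.92.

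Sema4a and Sema4f were lower in both PROM1 libraries. Sema4a, a transmembrane semaphorin also known from immune cells, had 0.978 and 0.477 FPKM in the PROM1 libraries, against 2.21 and 1.24 FPKM in the control libraries, near the floor of 1 FPKM used for testing. Its log2 difference of -0.65 ± 0.40 (SE; limma adjusted p = 0.939) became -1.16 with a pseudocount of 0.1 and -0.39 without control library 1. Sema4f had 3.75 and 1.69 FPKM in the PROM1 libraries, against 4.50 and 4.16 FPKM in the control libraries. The gap rested mainly on PROM1 library 2: the log2 difference was -0.58 ± 0.36 (SE; limma adjusted p = 0.939), and -0.17 without that library, but -0.99 without PROM1 library 1.

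The most abundant semaphorins overlapped between conditions. Sema4g had 34.1 and 25.9 FPKM in the PROM1 libraries, against 38.55 and 28.6 FPKM in the control libraries. Sema4d, a ligand of class B plexins, had 27.0 and 36.05 FPKM in the PROM1 libraries, against 31.4 and 29.2 FPKM in the control libraries. Sema3f, a secreted repellent, had 21.3 and 17.8 FPKM in the PROM1 libraries, against 19.9 and 18.9 FPKM in the control libraries. All 3 had absolute log2 differences of 0.15 or less, smaller than their standard errors of 0.25, 0.22 and 0.21. Sema5a and Sema4b stood at 14.7 to 21.0 FPKM in every library, also with overlap. Sema6c, Sema6d and Sema3c overlapped at lower levels, between 0.730 and 6.62 FPKM. Sema7a, at 0.340 to 0.803 FPKM, was below the level for testing.

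Among the ephrins, the membrane-bound ligands of Eph receptors, 7 of 8 were tested, 4 with a higher and 3 with a lower mean. Efna3, the most abundant, had 60.6 and 57.6 FPKM in the PROM1 libraries, against 51.35 and 39.45 FPKM in the control libraries. Both PROM1 values were higher, by a log2 difference of 0.38 ± 0.21 (SE; limma adjusted p = 0.939), which was 0.20 without control library 2. Efna2 lay on the other side, with 10.9 and 7.95 FPKM in the PROM1 libraries, against 16.8 and 11.9 FPKM in the control libraries. Its libraries did not overlap, and its log2 difference was -0.56 ± 0.28 (SE; limma adjusted p = 0.939), or -0.33 without control library 1 and -0.35 without PROM1 library 2. Both are ephrins of class A, which are held in the membrane by a lipid anchor, so members of 1 class stood on opposite sides.

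Efna5, a repellent of class A, had 15.7 and 14.1 FPKM in the PROM1 libraries, against 14.0 and 11.7 FPKM in the control libraries. The lower PROM1 value lay just above the higher control value, and the log2 difference was 0.21 ± 0.22 (SE). Efna1 overlapped at 6.17 to 9.15 FPKM. Efna4 ranged from 0 to 2.48 FPKM, both ends in PROM1 libraries, with a log2 difference of -0.08 ± 0.65 (SE). The transmembrane ephrins Efnb1 and Efnb2 also overlapped, with log2 differences of 0.24 ± 0.37 and 0.36 ± 0.42 (SE). Efnb3, at 0.355 to 1.76 FPKM, was below the level for testing.

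Of the 9 Eph receptors, 6 were tested, 1 with a higher and 5 with a lower mean. Epha8, the most abundant Eph receptor here, had 30.8 and 30.7 FPKM in the PROM1 libraries, against 40.2 and 32.6 FPKM in the control libraries. The PROM1 libraries were close together and below both controls, with a log2 difference of -0.23 ± 0.20 (SE; limma adjusted p = 0.941), which was -0.08 without control library 1 and -0.38 without control library 2. Epha6 had 8.71 and 11.3 FPKM in the PROM1 libraries, against 9.05 and 5.865 FPKM in the control libraries. The conditions overlapped, and the log2 difference was 0.40 ± 0.29 (SE), with 0.12 without control library 2 and 0.67 without control library 1. Ephb2 had 1.75 and 2.19 FPKM in the PROM1 libraries, against 3.31 and 2.03 FPKM in the control libraries, also with overlap. Epha4, Ephb3 and Ephb6 stood at 0.506 to 1.899 FPKM, and each overlapped between conditions.

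Epha10, a receptor whose kinase domain is known as inactive, was the only Eph receptor below the level for testing whose libraries did not overlap. It had 0.384 and 0.449 FPKM in the PROM1 libraries, against 1.06 and 1.30 FPKM in the control libraries. Its log2 difference without the filter on level was -0.62. Epha3 and Epha5, at 0.402 to 1.55 FPKM, were below the same level and overlapped.

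The netrin system had 6 genes, of which 5 were tested, 1 with a higher and 4 with a lower mean. Rgmb, a lipid-anchored neogenin ligand that is also a co-receptor for BMPs and is counted here with the receptors, had 46.6 and 50.8 FPKM in the PROM1 libraries, against 54.9 and 50.05 FPKM in the control libraries. The conditions overlapped, with a log2 difference of -0.11 ± 0.18 (SE). Neo1, the neogenin receptor, had 18.2 and 15.6 FPKM in the PROM1 libraries, against 18.25 and 14.6 FPKM in the control libraries, with a log2 difference of 0.04 ± 0.23 (SE). These abundant receptor components were thus close between conditions, within the spread of the libraries.

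The ligands of the netrin system were both lower in PROM1 libraries. Ntn3, a laminin-related secreted cue, had 3.10 and 3.01 FPKM in the PROM1 libraries, against 3.74 and 4.15 FPKM in the control libraries. The libraries did not overlap, and the log2 difference was -0.29 ± 0.26 (SE; limma adjusted p = 0.941). Ntn4, a netrin that binds laminins in basement membranes, had 0.692 and 0.536 FPKM in the PROM1 libraries, against 1.15 and 1.93 FPKM in the control libraries. Its level was near the floor for testing, and its log2 difference of -0.64 ± 0.38 (SE; limma adjusted p = 0.939) became -1.17 with a pseudocount of 0.1 and -0.42 without control library 2. The repulsive netrin receptor Unc5c overlapped at 2.10 to 3.72 FPKM, and Unc5b was below 1 FPKM in all 4 libraries. Dcc and Ntn1 were not analysed here.

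Slit1, the secreted ligand of Robo receptors, had 13.4 and 8.07 FPKM in the PROM1 libraries, against 10.15 and 11.04 FPKM in the control libraries. Its PROM1 libraries enclosed the control values, with a log2 difference of -0.02 ± 0.29 (SE), which was 0.02 after upper quartile scaling. Robo2 had 4.31 and 3.11 FPKM in the PROM1 libraries, against 4.74 and 5.32 FPKM in the control libraries. Its libraries did not overlap, and the log2 difference was -0.37 ± 0.28 (SE; limma adjusted p = 0.939), or -0.18 without PROM1 library 2 and -0.55 without PROM1 library 1. Robo1 had 3.05 and 4.22 FPKM in the PROM1 libraries, against 3.46 and 2.90 FPKM in the control libraries, and overlapped.

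Of the 48 genes, 7 had more than 1 listed transcript, and for Plxnb2, Efna5, Sema4d and Neo1 the division among transcripts changed between libraries of the same condition while the sums stayed closer. The sum of Sema6c itself ran from 1.99 to 6.62 FPKM, with 58.5% to 100% of it in NM_011351. For Plxnb2, 10.7 FPKM stood in NM_138749 in PROM1 library 1, and 12.1 FPKM stood in NM_001284506 in PROM1 library 2. Control library 1 split into 4.90 FPKM in NM_001159521 and 2.54 FPKM in NM_001284506, and control library 2 had 7.08 FPKM in NM_001284506. The sums of Plxnb2 separated the conditions, while none of its transcripts was abundant in both PROM1 libraries. Efna5 stood almost wholly in NM_207654 in PROM1 library 1 and in both control libraries, but at 14.1 FPKM in NM_010109 in PROM1 library 2.

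The levels of Sema4d and Neo1 moved between transcripts within a condition as well. NM_013660 of Sema4d had 0.181 and 14.8 FPKM in the PROM1 libraries, against 18.9 and 0.00348 FPKM in the control libraries. NM_001042752 of Neo1 had 3.44 and 0.0185 FPKM in the PROM1 libraries, against 0.000636 and 8.03 FPKM in the control libraries. A pattern that did follow the conditions was found for NM_011349 of Sema3f, with 5.2e-05 and 0.000137 FPKM in the PROM1 libraries, against 1.33 and 2.44 FPKM in the control libraries. For Sema4f, NM_011350 was lower in both PROM1 libraries, with 0.834 and 0.000412 FPKM, against 2.87 and 4.16 FPKM in the control libraries. Its other transcript, NM_001308374, had 2.92 and 1.69 FPKM in the PROM1 libraries, against 1.63 and 0.00252 FPKM in the control libraries. PROM1 library 2 and control library 1 were nearly equal for it. The authors' deposited table gave p-values of 0.1861 for NM_011349, 0.2023 for NM_011350 and 0.2122 for NM_001308374. These transcripts were picked after seeing their values, and the share of such splits over all genes was not counted. Cufflinks divides the reads of a gene among its transcripts by a model, and its part in these values was not tested.

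**Figure D3:**
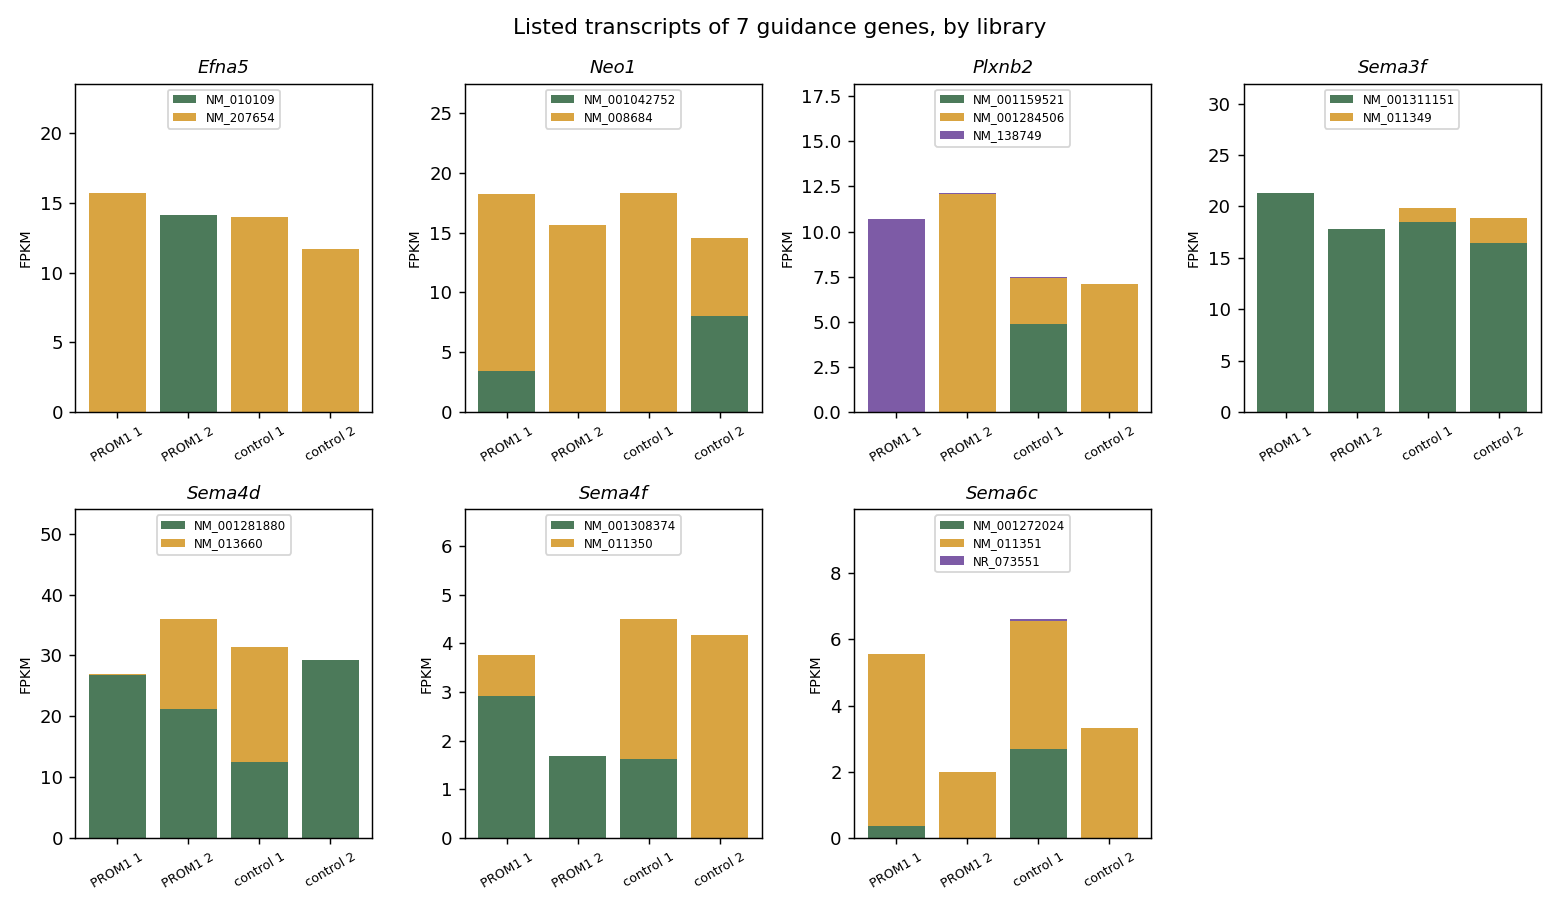
Stacked FPKM of each listed transcript of the 7 guidance genes with more than 1, in PROM1 libraries 1 and 2 and control libraries 1 and 2. The colours trade places between libraries of the same condition for Plxnb2, Efna5, Sema4d and Neo1, while the bar heights stay closer together.

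The authors' own comparison gives 1 FPKM per condition and a p-value for each transcript. Of the 57 guidance transcripts, 0 were marked significant in the authors' deposited table, against 0.204% of all transcripts, and their lowest q was 0.468. A deposited p under 0.05 was listed for 7 of the 57 (12.3%), against 4.71% of all transcripts. Of the 7, the authors' deposited table had 5 higher in PROM1 cultures (Sema6a, Unc5b, Efnb2, Efnb3 and Plxna1) and 2 lower (Plxnd1 and Epha10). Sema6a had the smallest, 0.00245, at 9.34 FPKM in PROM1 cultures and 5.21 FPKM in control cultures in the authors' deposited table. Its library values above show the same direction with separated libraries, as do those of Plxna1, Plxnd1 and Epha10.

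The other 3 transcripts did not separate in the library values. Unc5b, at p = 0.00575 in the authors' deposited table, had 0.806 and 0.254 FPKM in the PROM1 libraries, against 0.196 and 0.299 FPKM in the control libraries. PROM1 library 1 alone was high. Efnb2, at p = 0.02395 in the authors' deposited table, had 2.735 and 1.196 FPKM in the PROM1 libraries, against 1.66 and 0.881 FPKM in the control libraries. Efnb3, at p = 0.04195 in the authors' deposited table, had 0.671 and 1.76 FPKM in the PROM1 libraries, against 1.15 and 0.355 FPKM in the control libraries. The libraries of both ephrins overlapped. The deposited p-values of these 3 transcripts go with group values that stood above the library means. In the authors' deposited table Unc5b had 4.20 FPKM in PROM1 cultures and 2.01 FPKM in control cultures. Efnb2 had 4.495 FPKM in PROM1 and 2.56 FPKM in control cultures there, and Efnb3 had 2.15 FPKM in PROM1 and 0.936 FPKM in control cultures. Unc5b, Efnb2 and Efnb3 lie outside the rule for values by library and were singled out after seeing them.

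For some guidance genes the deposited group value stood well above both library values. Of 48 guidance transcripts with a library mean of at least 1 FPKM, 7 (14.6%) had group values over 2 times the library mean in both conditions, against 3.62% of all such transcripts. In the authors' deposited table Epha4 had 7.94 FPKM in PROM1 cultures and 8.53 FPKM in control cultures, while its library means were 1.28 FPKM in PROM1 cultures and 1.65 FPKM in control cultures. Sema6d had 19.4 FPKM in PROM1 cultures and 23.9 FPKM in control cultures in the authors' deposited table, with library means of 2.10 FPKM in PROM1 and 3.20 FPKM in control cultures. Efnb1 had 11.7 FPKM in PROM1 cultures and 11.8 FPKM in control cultures in the authors' deposited table, with library means of 3.385 FPKM in PROM1 and 2.62 FPKM in control cultures. In the authors' deposited table NM_001308374 of Sema4f had 24.6 FPKM in PROM1 cultures and 16.9 FPKM in control cultures. Its library means were 2.30 FPKM in PROM1 and 0.8175 FPKM in control cultures. The other transcript of Sema4f, NM_011350, had group values of 0.340 FPKM in PROM1 and 10.3 FPKM in control cultures. These genes were picked after seeing their values. The rank of such genes among the guidance genes therefore depends on which deposited column is read. The direction of the difference was the same in both kinds of column for 50 of the 57 transcripts.

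**Figure D4:**
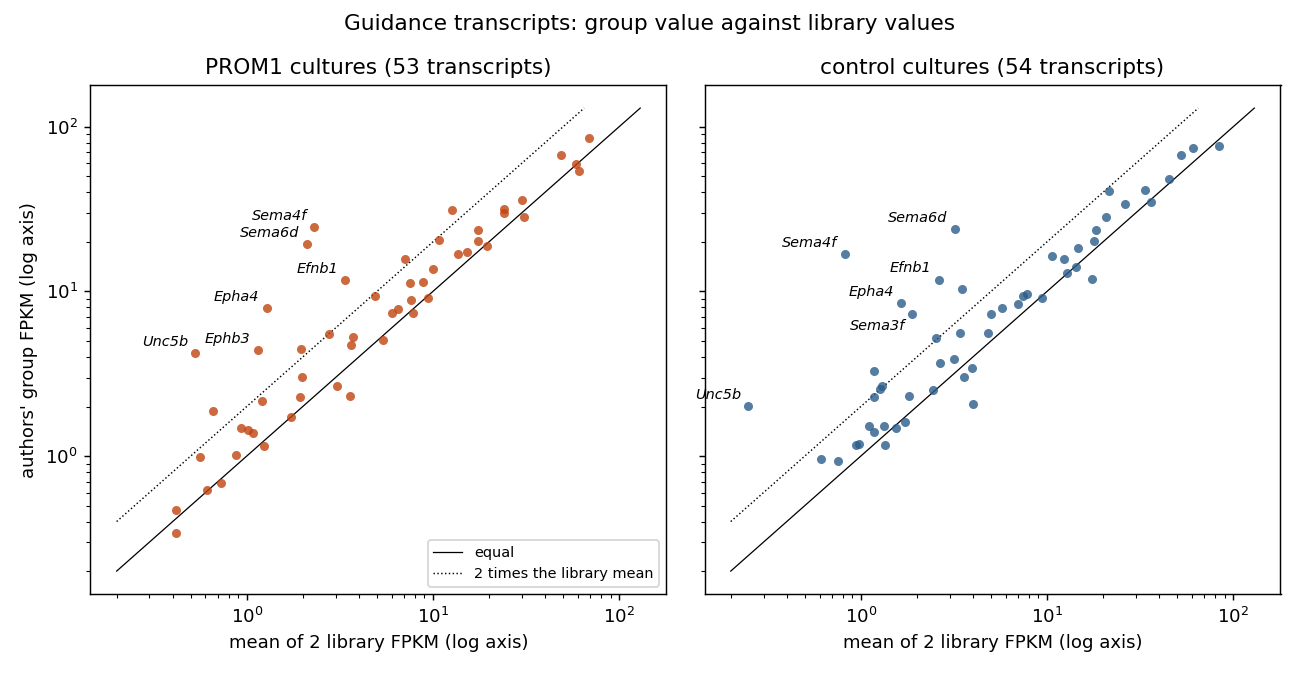
The authors' group FPKM against the mean of the 2 library FPKM values for guidance transcripts with at least 0.2 FPKM in both, on log axes, in PROM1 cultures (53 transcripts, left) and control cultures (54 transcripts, right); named points lie over 3 times above the line of equality. Most points lie a little above that line, while Sema6d, Sema4f, Epha4, Efnb1 and Unc5b stand well above it in both conditions.

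Genes that carry guidance signals inside the cell, and co-receptors, gave no call either. Of a list of 54 such genes, 46 were listed and tested, and 0 had an adjusted p under 0.05 in limma, with 2 at an unadjusted p under 0.05, against 0.0198% and 4.70% of all genes tested. A higher mean was found for 14 and a lower mean for 32, against 46.5% and 53.5% of all genes tested, with a median log2 difference of -0.08. The conditions separated upward for 4 of the 46 (8.70%) and downward for 11 (23.9%), against 16.5% and 17.5% of all genes tested.

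The members of this list with the largest differences were 2 genes of 1 family. Mical1, a flavoprotein that plexins engage and that oxidises actin, had 10.5 and 13.4 FPKM in the PROM1 libraries, against 6.76 and 5.49 FPKM in the control libraries. Its log2 difference was 0.86 ± 0.25 (SE; limma adjusted p = 0.939). Mical2, a relative with the same chemistry, had 2.51 and 1.59 FPKM in the PROM1 libraries, against 4.35 and 3.32 FPKM in the control libraries, a log2 difference of -0.67 ± 0.32 (SE). Libraries separated by condition for both, in opposite directions. The adhesion molecule Cntn2 had 13.8 and 9.655 FPKM in the PROM1 libraries, against 19.25 and 16.0 FPKM in the control libraries, a log2 difference of -0.56 ± 0.26 (SE). The kinase Fyn had 28.75 and 20.3 FPKM in the PROM1 libraries, against 35.3 and 32.3 FPKM in the control libraries, a log2 difference of -0.46 ± 0.24 (SE). Both were lower in each PROM1 library. The same held for Enah, an actin regulator, with 0.937 and 0.482 FPKM in the PROM1 libraries, against 1.55 and 1.12 FPKM in the control libraries. Chn1, a Rac regulator that acts in Eph signalling, had 70.35 and 69.0 FPKM in the PROM1 libraries, against 100.5 and 91.0 FPKM in the control libraries. Its log2 difference was -0.45 ± 0.18 (SE), with an unadjusted p of 0.0473 and an adjusted p of 0.939 in limma. The collapsin response mediators Crmp1, Dpysl2, Dpysl3, Dpysl4 and Dpysl5, which carry semaphorin signals to microtubules, had log2 differences between -0.20 and -0.01.

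Semaphorins, ephrins and netrins are also made by glia and connective tissue cells, so markers of these were set beside the results. Of 11 markers of Schwann cells and satellite glia, 5 were listed, with a summed 44.7 and 45.9 FPKM in the PROM1 libraries, against 76.5 and 56.3 FPKM in the control libraries. All 5 had a lower mean, led by Pmp22 with a log2 difference of -0.83. Pmp22 had 18.8 and 20.7 FPKM in the PROM1 libraries, against 44.9 and 28.8 FPKM in the control libraries. Sox10, S100b and Gjc3 overlapped between conditions. Their log2 differences of -0.01, -0.15 and -0.16 were smaller than their standard errors. Of 8 fibroblast markers, 4 were listed, with a summed 7.94 and 10.0 FPKM in the PROM1 libraries, against 3.01 and 4.72 FPKM in the control libraries. Col1a1 had 3.33 and 4.28 FPKM in the PROM1 libraries, against 0.545 and 1.24 FPKM in the control libraries. Col1a2 was also higher in both PROM1 libraries, with a log2 difference of 0.91 ± 0.40 (SE). Fbln1 overlapped between conditions, with a log2 difference of 0.17 ± 0.35 (SE). Postn, below the level for testing, was at or near 0 in PROM1 library 1 and at 1.545 FPKM in PROM1 library 2. Its control libraries had 0.338 and 0.349 FPKM. Of 7 markers each, Acta2 alone was listed for endothelial cells and pericytes, and C1qb and Aif1 for macrophages, with sums under 4 FPKM in every library and Aif1 at 0 in control library 2. C1qb had 0.3385 and 1.16 FPKM in the PROM1 libraries, against 2.30 and 3.51 FPKM in the control libraries, a log2 difference of -1.18 ± 0.40 (SE). Acta2 had 3.43 and 1.51 FPKM in the PROM1 libraries, against 3.63 and 3.83 FPKM in the control libraries, a log2 difference of -0.50 ± 0.37 (SE). C1qb and Acta2 were both lower in each PROM1 library. The other macrophage marker, Aif1, overlapped between conditions. Its mean was higher in PROM1 cultures, at 1.14 FPKM against 0.749 FPKM in control cultures. The marker genes given by library were picked after seeing their values. The part of these cells in the guidance values was not tested.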

How the data were processed

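Polyadenylated RNA from 4 cultures was made into libraries with the Lexogen SENSE kit and read single-end to 50 nt, per the labels' protocols. CASAVA, TopHat2 and the build mm9 are named in the submitters' processing notes. Annotation, strand use and the tool behind the group comparison are not given in the sources at hand. Per the file headers, the authors computed FPKM per library with Cufflinks, and deposited 1 FPKM per group with p-values and q-values for each of 14236 transcripts. The log2 ratios of groups and the −log10 column in the deposited table were not used.

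Symbols were read from the deposited descriptions. A total of 39 transcripts with a missing library value were left out, none of them a guidance transcript, and FPKM was summed per symbol. Of the 48 genes, 20 have more coding accessions in RefSeq (GRCm38.p6) than listed transcripts, so a sum covers the listed transcripts alone. Genes averaging at least 1 FPKM were tested with limma 3.58.1 (R 4.3.3, variance trend) on log2(FPKM + 1), PROM1 minus control. Benjamini-Hochberg adjustment was over all genes tested, with a threshold of 0.05, and the fit was tested on simulated data. The smallest two-sided p of an exact permutation test is 0.333 with 2 libraries in each condition. Values in every library are given for genes with an unadjusted p under 0.05, the 3 most abundant of each family, and those with separated libraries and a log2 difference of at least 0.5, and for the 6 genes of the downstream list with the largest differences; others are given by range unless said. The genes and lists were chosen with earlier results of these data known. Alternatives were another pseudocount, no or a stricter filter on level, upper quartile scaling, a replicate block, genes with 1 listed transcript, and leaving out each library.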

Additional observations from a re-analysis of the deposited data

How the results depend on the processing

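Under all 10 alternatives run, 0 guidance genes and 0 genes of the downstream list had an adjusted p under 0.05 in limma, with 0 to 3 guidance genes at an unadjusted p under 0.05 and a lowest adjusted p of 0.711. The number of guidance genes with both PROM1 libraries below both control libraries was 12, and it was 6 with a mean of at least 5 FPKM, where only 22 of the genes remain. Leaving out each library in turn gave 15 to 24 genes below and 8 to 15 above, against 12 and 6; with 3 libraries such an order is easier to reach by construction, and the single library left in a condition is assumed to vary like the rest. The median log2 difference was -0.09, and -0.20 to 0.02 without each library in turn. Of 25 named genes followed in this way, 21 moved by over 1.5 times or changed sign; Sema6a, Plxnb2, Plxna2 and Ntn3 did not. Those that changed sign were Neo1 (-0.11 to 0.20), Sema3f (-0.11 to 0.13), Slit1 (-0.35 to 0.32), Robo1 (-0.0422 to 0.32), Sema4g (-0.36 to 0.0561) and Sema4d (-0.16 to 0.24), whose differences with all libraries were smaller than their standard errors. With upper quartile scaling Slit1 was at 0.0206, against -0.0186, and 17 genes had a higher and 25 a lower mean, against 14 and 28; this scaling moved the median of all genes alike, to 0.01 against -0.03. The replicate numbers of the libraries are only numbers in the labels. Same-numbered libraries deviated together with a correlation of 0.139 across 10108 genes, and a fit with the replicate number as a block called 0 guidance genes and 2 of all genes, as without it; it left 12 genes below and 6 above, a median of -0.09 and 0 calls in the downstream list. Without read counts, the depth limit of low genes such as Unc5b, Epha10 and Sema7a is unknown.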
